A study of Homo sapiens with 6 samples.

Results

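Expressed long intergenic noncoding RNAs (lincRNAs) were followed in ME180 cells, an epithelial cell line established from a cervical cancer, after transfection with a small interfering RNA (siRNA) against SGK1 or with a control siRNA. A lincRNA gene entered the set when its biotype in the deposited table was lincRNA, its mean over the 6 libraries was at least 1 FPKM (fragments per kilobase of gene, scaled to library size), it lay on an autosome, and its name was not that of a known snoRNA host (SNHG, GAS5 or ZFAS1). This gave 352 lincRNAs of 58302 genes in the table. The table lists 7493 lincRNA genes, of which 371 reached 1 FPKM. Of these 371, 14 on the sex chromosomes and 5 with snoRNA-host names were left out, and 4098 lincRNA genes were listed at 0 in every library.

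The siSGK1 group held 3 libraries of polyA RNA from cells 48 hours after transfection with the siRNA against SGK1, and the siControl group held 3 libraries taken 48 hours after transfection with the control siRNA. Series notes call the 3 samples of each group biological repeats. All libraries come from 1 cell line, and the labels do not state the siRNA sequences, their dose or their number. The members were chosen by their mean FPKM level, so levels are given as a description. The rule used the mean over both groups and no difference between them, though a lincRNA could pass through the level of 1 group alone.

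Long noncoding RNAs are transcribed by RNA polymerase II, mostly spliced and polyadenylated, and translated into no known protein. Some act in the nucleus as scaffolds, such as NEAT1 in paraspeckles. Others bind proteins or microRNAs (miRNAs) in the cytoplasm, and a further class is the precursor from which DROSHA and DGCR8 cut miRNA hairpins. Many are transcribed at low levels beside a protein-coding gene. SGK1, the targeted gene, encodes a serine/threonine kinase downstream of PI3K that is induced by serum and glucocorticoids.

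Libraries held 28405647 to 35242643 reads in genes in siSGK1 and 27262794 to 27874948 in siControl, as recovered from the FPKM steps. SGK1 averaged 1.70 ± 0.12 FPKM in siSGK1 and 4.12 ± 0.19 FPKM in siControl (SD, n = 3 each), a log2 change of −1.07 whose exact 2-sided permutation p was 0.1, the smallest that 3 against 3 libraries allow. The 50 genes with most reads took 16.9 ± 0.57% of reads in siSGK1 and 20.1 ± 0.08% in siControl, and mitochondrially encoded genes took 3.50 ± 0.14% in siSGK1 and 4.25 ± 0.13% in siControl (SD, n = 3 each). Among 7 epithelial markers, CDH1, EPCAM and TP63 had 36.8 to 43.4 FPKM in siSGK1 and 36.9 to 43.1 FPKM in siControl. By the limma test described below, 3 of the 7, KRT5 among them, were called lower in siSGK1 (1 of 7 after quantile normalization). That test called 22.7% of all tested genes lower, and 38.5% of those at 20 FPKM or more. Summed over the 7, the level was 5758, 4972 and 5776 FPKM in siSGK1 and 7487, 7276 and 7048 FPKM in siControl. Of 8 markers of blood, endothelial and mesenchymal cells, 6 stayed under 1 FPKM in every library, with PECAM1 at 0 in all. The summed level of the 8 lay between 5.73 and 6.87 FPKM in siSGK1 and between 6.58 and 6.91 FPKM in siControl. VWF, whose mean over all libraries was under the filter of the test, had 0.583, 0.447 and 0.557 FPKM in siSGK1 and 1.46, 1.44 and 1.14 FPKM in siControl, with no overlap, and its part in the lincRNA results was not tested. COL1A1 was at 5.37 ± 0.46 FPKM in siSGK1 and 4.93 ± 0.26 FPKM in siControl.

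Sequence motifs and encoded miRNAs are shown before the values. Of the 352 lincRNAs, 329 have the same gene coordinates in the table as in GENCODE release 29 (GRCh38), and their transcripts were searched on their own strand. The 8-base sequence TCGGAGAA was searched because an earlier pass over these libraries had found it in the 3' UTRs of mRNAs that were higher in siSGK1. It occurred in transcripts of 6 lincRNAs, or 1.82% of those searched, against 1.92% of 365 tested antisense RNA genes and 0.732% of 7100 lincRNA genes of the table. The windows of 30 bases around the first match are given, 5′ to 3′, from the GENCODE transcripts, with the 8 bases in capitals.
NEAT1: ttgtgcgtttcTCGGAGAAgttcttagcct
RAB30-AS1: ctcgcctttatTCGGAGAAgcccacttcca
AC006058.3: atggcaggaatTCGGAGAAaatgcggtgtc
AL121790.2: actttatttctTCGGAGAAgatggcagtaa
AC092117.1: acagatttcacTCGGAGAAtccgccttgca
LINC00324: agatcaaggatTCGGAGAAaggtctctaca
The windows were aligned on the motif, which stands at the same place in each line. The match starts at base 1724 of 22743 in NEAT1, at base 143 of 1116 in RAB30-AS1 and at base 23 of 363 in AL121790.2. A second 8-base sequence, CTATGCAA, was reported by the same pass in mRNAs that were lower and occurred in 4 lincRNAs (1.22%), 2 of them shown here.
SCAMP1-AS1: gggagcttgctCTATGCAAagtcacccagg
AC006058.1: cacaccaacgaCTATGCAAaggattaactg

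Several lincRNAs are transcribed across miRNA hairpins on the same strand. The mature miRNAs of the hosts described below are given from RefSeq (GRCh38.p14), 5′ to 3′, with the seed (bases 2 to 8), which pairs with target mRNAs, in capitals. The first 5 share the let-7 seed and lie in 3 different hosts, AL158152.2 on chromosome 9 (let-7a, let-7f and let-7d), MIRLET7BHG on chromosome 22 (let-7a again, and let-7b) and MIR4458HG on chromosome 5 (miR-4458).
hsa-let-7a-5p: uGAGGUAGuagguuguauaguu
hsa-let-7f-5p: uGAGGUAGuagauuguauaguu
hsa-let-7d-5p: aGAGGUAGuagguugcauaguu
hsa-let-7b-5p: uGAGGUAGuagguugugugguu
hsa-miR-4458: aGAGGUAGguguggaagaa
hsa-miR-200c-3p: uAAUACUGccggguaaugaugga
hsa-miR-141-3p: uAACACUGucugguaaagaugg
hsa-miR-22-3p: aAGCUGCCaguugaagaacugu
hsa-miR-210-3p: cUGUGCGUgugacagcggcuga
hsa-miR-34a-5p: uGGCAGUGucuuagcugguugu
hsa-miR-4435: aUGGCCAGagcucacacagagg
The seeds of miR-200c and miR-141, both from MIR200CHG, are similar but not identical. The level of a host transcript does not measure its mature miRNAs, which were not sequenced here.

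More lincRNAs were higher than lower after SGK1 knockdown. Of the 352, 96 (27.3%) were called higher in siSGK1 and 35 (9.94%) lower by limma on log2(FPKM + 0.5), at a Benjamini-Hochberg adjusted p below 0.05 over 11945 tested genes. Over all tested genes 40.6% were called, 17.9% higher and 22.7% lower. The median log2 change of the lincRNAs was 0.15, with quartiles of −0.09 and 0.33, against −0.006 over all tested genes and −0.009 over 10394 protein-coding genes. Of 379 tested antisense RNA genes, a neighbouring class of noncoding RNA, 98 were called higher and 27 lower, with a median of 0.14. The lincRNA median thus lay close to that of antisense RNAs and above that of mRNAs, and no test was made of these list medians.

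**Figure D1:**
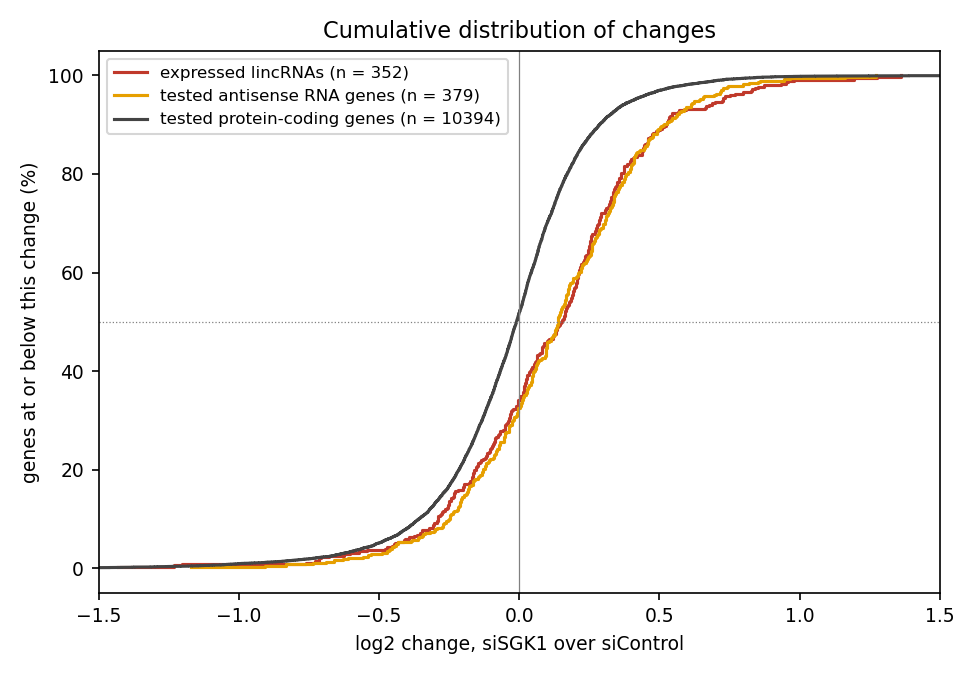
Cumulative percentage of genes (y axis) at or below each log2 change, siSGK1 over siControl (x axis), for the 352 lincRNAs, 379 tested antisense RNA genes and 10394 tested protein-coding genes, 1 line per class. The lincRNA and antisense curves cross 50% at 0.15 and 0.14 and run close together, while the protein-coding curve crosses at −0.009.

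The raw share of reads in lincRNAs was also larger in siSGK1. LincRNAs took 0.252, 0.279 and 0.261% of reads in genes in the siSGK1 libraries, against 0.215, 0.215 and 0.218% in the siControl libraries. All siSGK1 values lay above all siControl values, and summed FPKM was 1483 ± 14 in siSGK1 and 1352 ± 13 in siControl (SD, n = 3 each). The share of tested antisense RNA genes was larger too, 0.193 ± 0.005% in siSGK1 and 0.162 ± 0.002% in siControl (SD, n = 3 each). A share of reads is on the scale of total reads, on which the median log2 change of all tested genes was itself 0.12. Taken library by library, the median lincRNA stood 0.10, 0.14 and 0.15 above the siControl mean on the log2 scale in the 3 siSGK1 libraries, while the median tested gene stood within 0.02 of it in each. In bulk RNA a change in the number of cells that express a lincRNA and a change in RNA per cell cannot be told apart. The siSGK1 libraries were also the deeper ones, with a smaller share for the 50 top genes, and the part of either in the lincRNA shift was not tested.

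Most changes were modest, and groups often separated without a large fold. Of the 352 lincRNAs, 39 (11.1%) were called higher by at least 1.5-fold, against 3.58% of all tested genes, and 12 (3.41%) were called lower by at least 1.5-fold, against 4.74%. Of the 39, 14 had a siControl mean under 1 FPKM, and of the 12, 4 had a siSGK1 mean under 1 FPKM. Among the 304 lincRNAs with at least 1 FPKM in each group, 25 were higher and 8 lower by that fold. Between 1 and 2 FPKM, 18 of 168 lincRNAs were higher and 6 lower by that fold, against 139 and 135 of 2254 tested genes. For 108 lincRNAs (30.7%) every siSGK1 library lay above every siControl library, against 24.6% of tested genes. For 40 (11.4%) every siSGK1 library lay below, against 28.8%. The remaining lincRNAs overlapped between groups.

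The direction did not follow the level, with Spearman's rho of −0.007 between log2 change and mean FPKM over the members, against −0.162 over all tested genes. Between 1 and 2 FPKM, 32 lincRNAs rose and 13 fell of 168, and between 2 and 5 FPKM 39 rose and 17 fell of 113. Between 5 and 20 FPKM 20 rose and 5 fell of 63, and of the 8 lincRNAs at 20 FPKM or more 5 rose and none fell by limma, by voom or at an unadjusted p below 0.05, with the other 3 not called. Protein-coding genes in the same bands split 212 higher and 223 lower of 1596, 500 and 481 of 2694, 787 and 926 of 3849, and 356 and 847 of 2255. The band medians of the lincRNAs were 0.15, 0.17, 0.11 and 0.23, so the widest gap to mRNAs was in the highest band, where the median over protein-coding genes was −0.08.

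**Figure D2:**
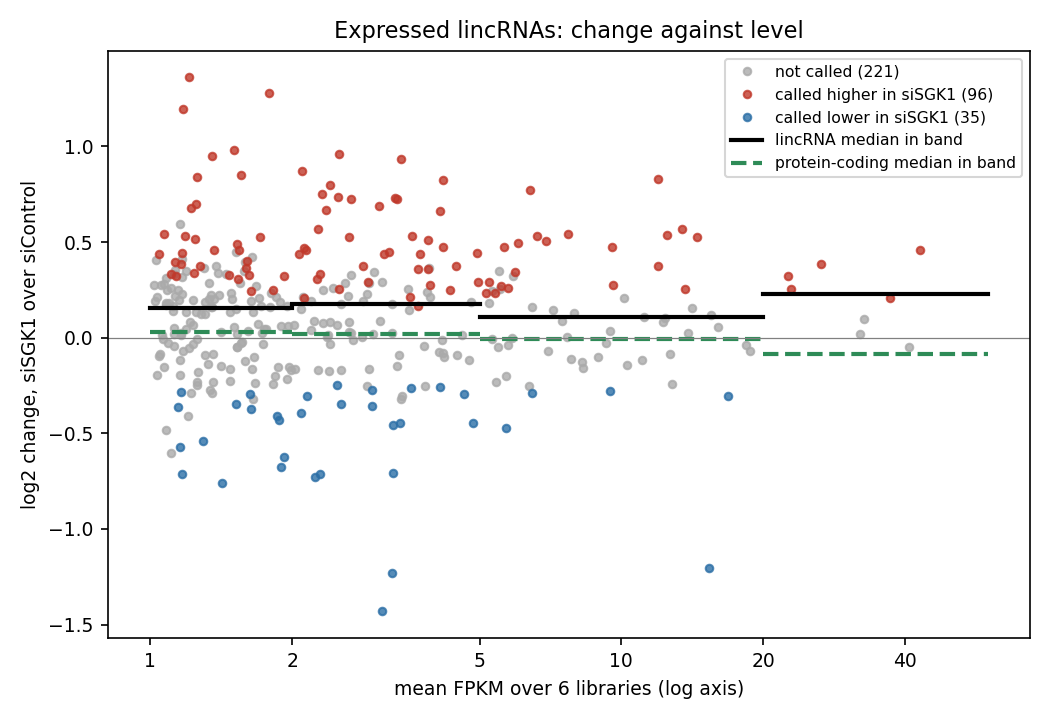
Log2 change, siSGK1 over siControl (y axis), against mean FPKM over 6 libraries on a log axis (x axis), 1 point per lincRNA, red for the 96 called higher, blue for the 35 called lower and grey for 221 not called; horizontal lines are medians within 4 level bands. The lincRNA medians (black) lie between 0.11 and 0.23, above the protein-coding medians (green, dashed) in every band.

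Low levels limit the precision. The median lincRNA had a mean of 2.12 FPKM and 461 reads over the 6 libraries, 83 had fewer than 200 reads, and the smallest count in a library was 2. The median coefficient of variation within a group was 11.4% in siSGK1 and 12.7% in siControl, against 5.50% and 4.75% for protein-coding genes. Of the 83 lincRNAs with fewer than 200 reads 18 were called, against 53 of the 91 with at least 1000 reads. The filter itself favours one direction for a low gene, since 36 lincRNAs had a siControl mean under 1 FPKM and passed only through their siSGK1 level, and 12 passed only through siControl. Among the 304 with at least 1 FPKM in each group, 78 were higher and 30 lower. Just inside the threshold, AC012360.2, AC013652.1 and AC113346.1 had means of 1.02, 1.02 and 1.03 FPKM, and just outside it LINC01176, AL122058.1 and AC002470.1 had 0.997, 0.991 and 0.988 FPKM.

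Scaling of the libraries matters for the count of each direction. With libraries scaled to their total reads in place of the deposited scale, the median of all tested genes moved to 0.12, and 137 lincRNAs were higher and 17 lower. Higher calls made up 89.0% of lincRNA calls under that scaling and 73.3% as deposited, against 73.6% and 44.2% of the calls over all genes. The lincRNA median minus that of all genes was 0.14 under total-read scaling and 0.16 as deposited. No called lincRNA changed sign under any of 13 alternatives, and 58 of the 131 called (45 higher, 13 lower) were called in the same direction under every one. With no level filter or with the replicate block the log2 change equals that of the main fit, so the sign could not turn there.

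Both lincRNAs of nuclear bodies were higher. NEAT1 (chromosome 11, 65422774 to 65445540, plus strand), the scaffold on which paraspeckles form, had 7.88, 10.4 and 9.52 FPKM in siSGK1 and 6.03, 5.90 and 6.56 FPKM in siControl. Every siSGK1 library was above every siControl library, with a log2 change of 0.54 (SE 0.09, limma adjusted p = 0.0022), and the call held under all 13 alternatives. MALAT1, which concentrates in nuclear speckles and lies downstream of NEAT1 on the same chromosome (65497762 to 65506516, plus strand), had 7.07, 9.18 and 8.28 FPKM in siSGK1 and 5.03, 5.01 and 6.91 FPKM in siControl. Its groups did not overlap either (log2 change 0.50, SE 0.13, adjusted p = 0.014), and the library of siControl replicate 4 came close to the lowest siSGK1 library. Without siSGK1 replicate 3 the MALAT1 call was lost (adjusted p = 0.058), as it was with no level filter (adjusted p = 0.0875). Exons of both genes overlap annotated features inside them, MIR612 and NEAT1 sub-regions in one and the mascRNA segment in the other, so part of their reads may have been assigned elsewhere. FPKM was given per gene in polyA libraries, so transcripts of a gene are not told apart, and those without a polyA tail may be missed. The NEAT1 values are thus those of the gene and not of a scaffold transcript alone. FRMD8, the nearest tested protein-coding gene to NEAT1, was not called (log2 change −0.10).

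Among cytoplasmic and stress-linked lincRNAs, NORAD and CYTOR were higher. NORAD (chromosome 20, 36045622 to 36050960, minus strand) is a cytoplasmic lincRNA known for its part in genome stability and was the most read lincRNA, with 35616 reads in all. It had 38.0, 44.5 and 37.2 FPKM in siSGK1 and 33.8, 35.3 and 34.0 FPKM in siControl (log2 change 0.21, SE 0.07, adjusted p = 0.039). The groups did not overlap, but the difference was small, and the call was lost without any 1 of the siControl libraries (adjusted p from 0.068 to 0.099) or with no level filter (adjusted p = 0.138). Without siSGK1 replicate 3, its highest library, the log2 change was 0.128 and still called (adjusted p = 0.0376). CYTOR, reported to act in proliferation and cytoskeletal organisation, had 5.86 ± 0.18 FPKM in siSGK1 and 4.92 ± 0.36 FPKM in siControl (log2 change 0.23, SE 0.06, adjusted p = 0.017). The CYTOR call was lost when siSGK1 replicate 2 (adjusted p = 0.053), siControl replicate 3 (0.061) or siControl replicate 4 (0.052) was left out, and with no level filter (0.0544). Its exons overlap LINC01943 and MIR4435-1, and it shares near-identical sequence with MIR4435-2HG on the same chromosome, so reads may be split between them. TP53TG1, a p53-induced RNA, was not called, at 7.49 ± 0.37 FPKM in siSGK1 and 8.14 ± 0.93 FPKM in siControl (log2 change −0.11), and its sign turned under total-read scaling. Its divergent neighbour CROT, a peroxisomal carnitine acyltransferase whose gene starts 166 bases away, fell to 1.86 ± 0.07 FPKM in siSGK1, against 3.90 ± 0.21 FPKM in siControl. EPB41L4A-AS1 missed the threshold, at 5.76 ± 0.72 FPKM in siSGK1 and 6.95 ± 0.53 FPKM in siControl (log2 change −0.25, adjusted p = 0.054). It was called lower when siSGK1 replicate 2 was left out (adjusted p = 0.030) and with voom (adjusted p = 0.013).

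Carcinoma-linked lincRNAs moved in both directions. LINC01133 (chromosome 1, 159961218 to 159984750, plus strand), an epithelial lincRNA studied in colorectal and squamous tumours, fell the most among lincRNAs above 5 FPKM. It had 9.50, 8.80 and 9.05 FPKM in siSGK1 and 21.2, 21.4 and 22.4 FPKM in siControl. The siSGK1 values were tightly grouped and 2.38-fold lower (log2 change −1.20, SE 0.05, adjusted p = 2.89e-06), and the call held under all 13 alternatives. Its nearest tested protein-coding gene, IGSF9, was not called (log2 change −0.14, adjusted p = 0.14). LINC00511 was lower, at 2.24 ± 0.07 FPKM in siSGK1 and 2.75 ± 0.06 FPKM in siControl (log2 change −0.25, adjusted p = 0.011), and lost its call under total-read scaling (log2 change −0.13, adjusted p = 0.144). CRNDE rose to 1.69 ± 0.14 FPKM in siSGK1, against 1.25 ± 0.16 FPKM in siControl (log2 change 0.33, adjusted p = 0.024), while its divergent neighbour IRX5, a homeobox factor, fell (log2 change −0.37). Leaving out siSGK1 replicate 3, siControl replicate 2 or siControl replicate 4 ended the CRNDE call (adjusted p = 0.074, 0.052 and 0.067), as did testing with no level filter (adjusted p = 0.0913). PVT1, which lies beside MYC, was not called (1.88 ± 0.14 FPKM in siSGK1, 2.17 ± 0.19 FPKM in siControl), and MYC was slightly higher (log2 change 0.15, adjusted p = 0.042).

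**Figure D3:**
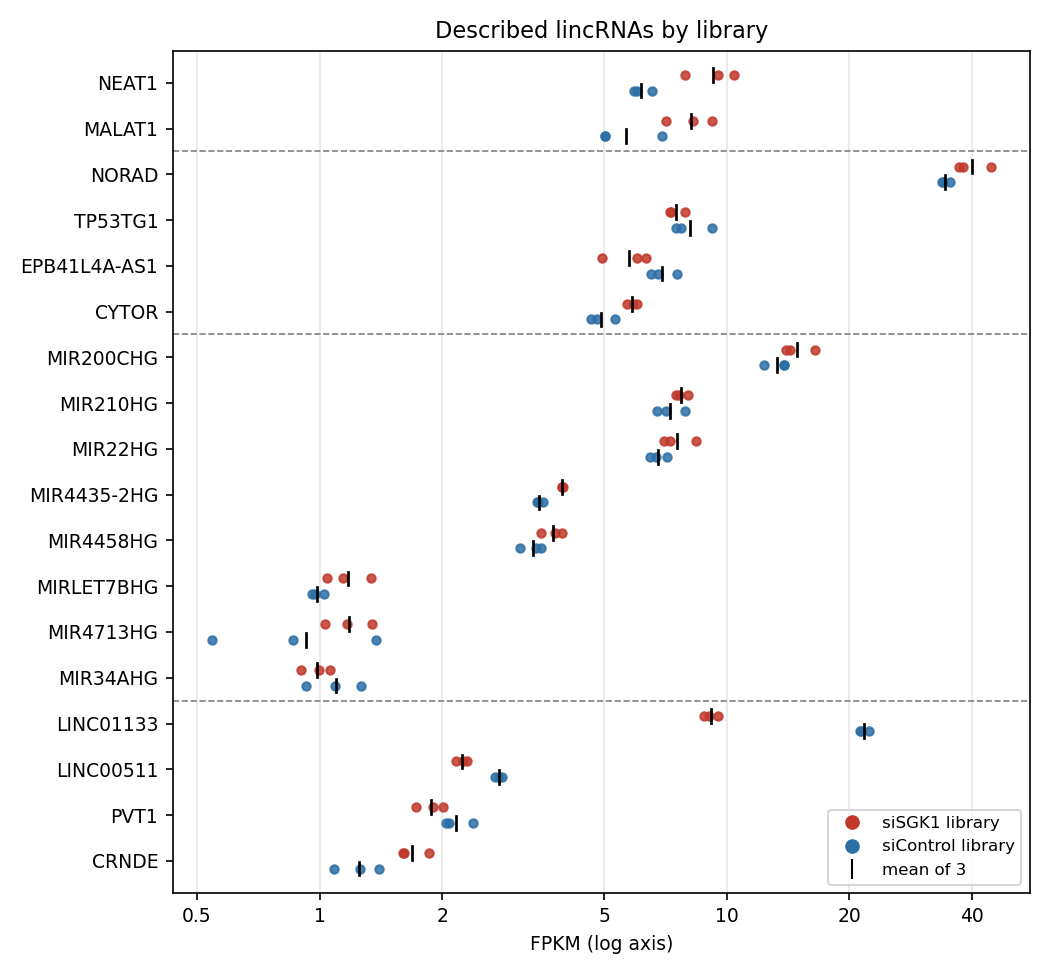
FPKM on a log axis (x axis) in each library for 18 lincRNAs with a described role, 1 row each, siSGK1 in red above siControl in blue, with a black tick at the mean of 3; dashed lines separate nuclear-body, cytoplasmic and stress-linked, miRNA-host and carcinoma-linked RNAs. LINC01133 shows the widest gap, 9.12 FPKM in siSGK1 against 21.7 FPKM in siControl, while most miRNA hosts overlap or nearly touch.

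Of the 8 lincRNAs named as miRNA hosts 1 was called on the deposited scale, against 6, all higher, under total-read scaling. Over all tested genes 40.6% were called on the deposited scale (17.9% higher), and under total-read scaling 36.1% were higher and 12.9% lower. The called host was MIR4435-2HG, at 3.95 ± 0.01 FPKM in siSGK1 and 3.46 ± 0.06 FPKM in siControl (log2 change 0.17, SE 0.05, adjusted p = 0.031). That call was lost in each fit that left out 1 library (adjusted p from 0.051 to 0.087). MIR200CHG, host of miR-200c and miR-141, which repress the mesenchymal factors ZEB1 and ZEB2, had 14.3, 14.0 and 16.5 FPKM in siSGK1 and 13.8, 12.3 and 13.8 FPKM in siControl. Its groups did not overlap, but the log2 change of 0.16 (SE 0.07) was not called (adjusted p = 0.12). MIR210HG, host of the hypoxia-linked miR-210, had 7.72 ± 0.27 FPKM in siSGK1 and 7.24 ± 0.58 FPKM in siControl, and MIR22HG had 7.55 ± 0.74 FPKM in siSGK1 and 6.77 ± 0.33 FPKM in siControl. MIR34AHG, whose miR-34a is a p53 target, had 0.987 ± 0.082 FPKM in siSGK1 and 1.10 ± 0.17 FPKM in siControl, whereas its neighbour GPR157 was lower (log2 change −0.58). MIR4713HG ranged from 0.54 to 1.37 FPKM within siControl alone, and was called higher only when siControl replicate 3 was left out (adjusted p = 0.036). Of 4 hosts without a host name, AL158152.2 was called lower (log2 change −0.73). The other hosts, AL139158.2 (miR-3659), AC009065.4 (miR-3677 and miR-940) and AC016205.1 (miR-924 and miR-5583), were not called, with log2 changes of −0.23, −0.006 and −0.16.

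The 3 hosts that carry the let-7 seed did not move together. AL158152.2, whose body spans let-7a-1, let-7f-1 and let-7d, had 1.88, 1.54 and 1.28 FPKM in siSGK1 and 2.92, 2.79 and 3.0 FPKM in siControl. All siSGK1 values were below all siControl values (log2 change −0.73, SE 0.10, adjusted p = 0.0009), on 90 reads in all. MIRLET7BHG had 1.18 ± 0.15 FPKM in siSGK1 and 0.986 ± 0.034 FPKM in siControl, and MIR4458HG had 3.74 ± 0.22 FPKM in siSGK1 and 3.33 ± 0.21 FPKM in siControl. Neither was called (log2 changes 0.17 and 0.15, adjusted p = 0.18 and 0.12). Both rises were called under total-read scaling (adjusted p = 0.049 and 0.017).

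The largest rises were in scarce lincRNAs, most of them near or under 1 FPKM in siControl. LINC00052, AC114550.3 and LINC01058, each under 1 FPKM in siControl, passed the level filter only through siSGK1. The filter favoured a rise in these, so their calls and separation of groups are given as a description. LINC00052 (chromosome 15, 87576929 to 87579866, plus strand) had 2.63, 3.04 and 2.55 FPKM in siSGK1 and 0.756, 0.863 and 0.887 FPKM in siControl. It was 3.28-fold higher with no overlap (log2 change 1.28, SE 0.09, adjusted p = 2.48e-05), and its nearest tested protein-coding gene lies 879610 bases away. AC114550.3 had the largest log2 change among the called members, 1.36 (SE 0.19, adjusted p = 0.00082), with 1.95 ± 0.47 FPKM in siSGK1 and 0.459 ± 0.230 FPKM in siControl, on 133 reads in all. Its neighbour on chromosome 8, AC114550.1, overlaps its bounds on the same strand and also rose (log2 change 0.95), so the 2 may be counted from 1 transcript. LINC01058, on 101 reads, rose 3.61-fold, to 1.84 ± 0.47 FPKM in siSGK1, against 0.509 ± 0.091 FPKM in siControl, and LINC01816 rose 2.52-fold. AP000251.1, which lies opposite TIAM1, rose to 3.49 ± 0.23 FPKM in siSGK1, against 1.55 ± 0.20 FPKM in siControl (log2 change 0.96, SE 0.09, adjusted p = 8.92e-05), and TIAM1 was not called (log2 change −0.02). AC022784.1 rose 2.11-fold together with its divergent neighbour PPP1R3B, a glycogen-targeting phosphatase subunit (log2 changes 0.93 and 0.60), and its exons overlap those of other annotated genes. LINC01556, AC015689.1 and AL139089.1 complete the 10 largest rises, with log2 changes of 0.87, 0.85 and 0.84. With no level filter LINC01556 and AC015689.1 were not called (adjusted p = 0.0871 and 0.0836).

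Falls of a similar size were fewer. LINC02178 had 2.32, 0.710 and 1.54 FPKM in siSGK1 and 5.20, 4.90 and 3.93 FPKM in siControl (log2 change −1.43, SE 0.26, adjusted p = 0.0030). AC005392.2 had 2.82, 1.00 and 1.63 FPKM in siSGK1 and 4.43, 4.23 and 5.42 FPKM in siControl (log2 change −1.23, SE 0.24, adjusted p = 0.0043). In both the groups did not overlap, replicate 3 of siSGK1 was the lowest library and replicate 2 the highest of its group, and the calls held under all 13 alternatives. Smaller falls were C15orf59-AS1 (log2 change −0.68), AC008555.5 (−0.71), AC004241.2 (−0.76) and AC092818.1 (−0.71). C15orf59-AS1 shares exon sequence with C15orf59 on the other strand, which fell with it (log2 change −0.48), and the labels do not state whether counting used strand. The AC015660.1 call ended when the third or the fourth siSGK1 replicate was omitted, or the fourth siControl one (adjusted p = 0.051, 0.052 and 0.065). LINC00519 lost its call with the third siSGK1 replicate omitted (adjusted p = 0.060). With no level filter AC015660.1, LINC00519 and AC092818.1 were not called (adjusted p = 0.117, 0.0931 and 0.0547).

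**Figure D4:**
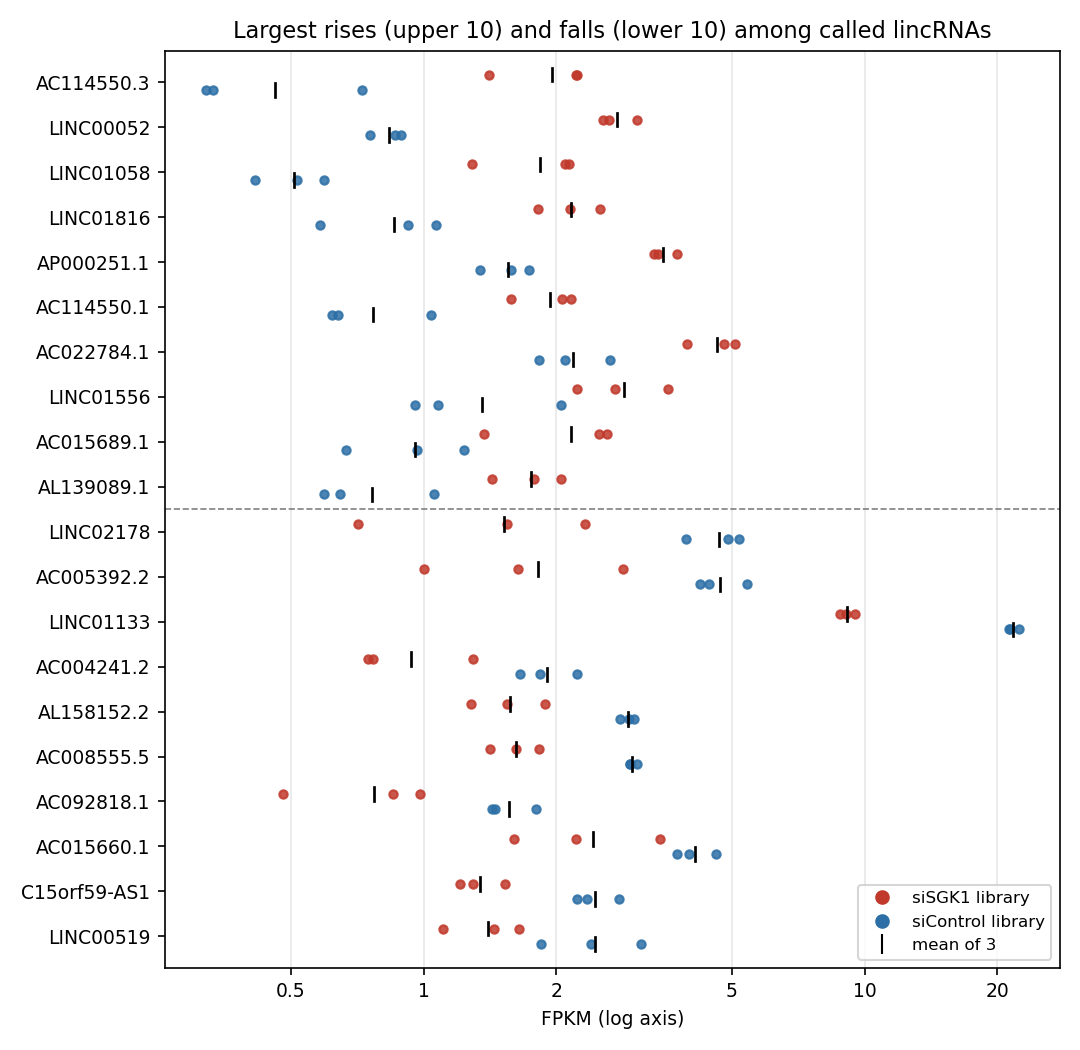
FPKM on a log axis (x axis) in each library for the 10 largest rises (above the dashed line) and the 10 largest falls (below it) among called lincRNAs, siSGK1 in red above siControl in blue, with a black tick at the mean of 3. In LINC00052 and LINC01133 each group is narrow beside the gap between groups, and LINC02178 spreads from 0.710 to 2.32 FPKM within siSGK1.

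The most abundant lincRNAs differed among themselves. AC108865.1 (chromosome 4, 186890969 to 186892366, plus strand) had 45.7, 50.3 and 53.7 FPKM in siSGK1 and 36.3, 34.7 and 37.4 FPKM in siControl. It rose with no overlap (log2 change 0.46, SE 0.06, adjusted p = 0.0007), and AC108865.2, which begins just past its end on the same strand, rose too (log2 change 0.57, adjusted p = 0.0027). FAT1, the nearest protein-coding gene, was level, with a log2 change of −0.001. IGFL2-AS1 was as abundant but not called, at 39.9 ± 0.8 FPKM in siSGK1 and 41.6 ± 4.3 FPKM in siControl (log2 change −0.05, adjusted p = 0.60). In the same region IGFL1, which encodes a secreted IGF-like protein, fell to 3.66 ± 0.68 FPKM in siSGK1, against 19.5 ± 1.7 FPKM in siControl. With NORAD, 5 further lincRNAs make up the 8 at 20 FPKM or more. LINC01468 had 29.8, 31.7 and 28.9 FPKM in siSGK1 and 23.0, 23.1 and 22.9 FPKM in siControl (log2 change 0.38, SE 0.05, adjusted p = 0.0004). Its siControl libraries were almost level and all siSGK1 libraries lay above them, and DKK1, a secreted Wnt antagonist and its nearest protein-coding gene, was higher too (log2 change 0.47). AP002360.2, divergent from EMSY, had 25.1 ± 0.6 FPKM in siSGK1 and 20.01 ± 1.53 FPKM in siControl, and AC245041.2 had 24.98 ± 1.64 FPKM in siSGK1 and 20.9 ± 0.6 FPKM in siControl. Both were called higher (log2 changes 0.32 and 0.25), and AC245041.2 lies in a duplicated region near FAM25C, so its reads may be shared with copies. LINC01503 was not called, at 33.9 ± 1.1 FPKM in siSGK1 and 31.6 ± 0.7 FPKM in siControl, nor was C5orf66-AS1, at 32.4 ± 2.7 FPKM in siSGK1 and 31.9 ± 1.8 FPKM in siControl. Among called falls above 5 FPKM, LINC01133 aside, AL035661.1 had 15.04 ± 1.42 FPKM in siSGK1 and 18.6 ± 0.7 FPKM in siControl, and AC254633.1 had 4.70 ± 0.69 FPKM in siSGK1 and 6.67 ± 0.04 FPKM in siControl (log2 changes −0.30 and −0.47).

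A few further lincRNAs, like those above 5 FPKM that fell, were chosen for description after their values were seen. BISPR, an interferon-responsive lincRNA transcribed divergently from BST2, had 5.40, 4.96 and 6.13 FPKM in siSGK1 and 2.70, 3.19 and 2.75 FPKM in siControl (log2 change 0.83, SE 0.09, adjusted p = 0.0002). BST2, which encodes the antiviral protein tetherin, was also higher, at 712.8 ± 26.1 FPKM in siSGK1 and 526.4 ± 35.0 FPKM in siControl (log2 change 0.44), so both genes of the pair rose. Exons of BISPR overlap MVB12A, which was lower (log2 change −0.16). AC004816.1 rose 1.81-fold, to 15.4 ± 1.3 FPKM in siSGK1 against 8.51 ± 1.55 FPKM in siControl, and AC004816.2 and their divergent neighbour MAP3K9, a mixed-lineage kinase, rose as well (log2 changes 0.75 and 0.48).

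Across all members, a lincRNA and its nearest protein-coding gene often differed in direction or call. For 60 called lincRNAs the nearest tested protein-coding gene was called too. Of these pairs 24 were higher together, 13 were lower together, 21 joined a higher lincRNA to a lower neighbour and 2 the reverse. For the other 71 called lincRNAs the neighbour was not called. Over all tested protein-coding genes 41.7% were called, 17.8% higher and 23.8% lower. The 60 of 131 called lincRNAs with a called neighbour lie near that share. Spearman's rho between the log2 changes was 0.16 over 352 lincRNAs with 320 distinct neighbours, and 0.19 over the 82 that start within 5000 bases of a divergent neighbour. These points share libraries and some share a neighbour, so the values are descriptive. The median change of the neighbours was −0.008, so the excess of rises seen in lincRNAs was not present in the genes beside them.

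Some called lincRNAs lay near one another. Joining lincRNAs within 50000 bases of each other gave 326 loci, 22 with 2 members and 2 with 3. In 5 shared loci at least 2 members were called, and in all 5 they moved one way. The higher ones were AC108865.1 with AC108865.2, AC114550.1 with AC114550.3, AC004816.1 with AC004816.2, and AL132712.1 with AL132712.2, and the lower one was AC091182.2 with LINC01605. Members of a locus may be parts of 1 transcript, so they were not counted as independent. Since 73.3% of all called members were higher, called members often share a direction wherever they lie. Chromosomes 17, 1 and 19 held the most members, with 34, 29 and 25.

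The split is given by structure and annotation, with no test between classes. It is to be read against 27.3% of all members called higher and 9.94% lower, and against 17.9% and 22.7% of all tested genes. In the classes by exon number, clone-based name and exon overlap with any annotated gene, 23.5 to 28.8% were higher and 9.6 to 11.2% lower. These lie near the member shares. LincRNAs with 1 exon numbered 98, of which 23 were higher and 11 lower, and those with more exons numbered 250, with 72 higher and 24 lower. Exons of 259 overlapped no other annotated gene, and of these 71 were higher and 25 lower. Exons of 89 overlapped another annotated gene, with which reads may be shared, and 24 of these were higher and 10 lower. Of the 89, 44 overlapped a tested gene, and 9 of the 44 (20.5%) were higher and 7 (15.9%) lower. The median log2 change of the 44 was 0.021, against 0.15 over all members. Clone-based names, which mark lincRNAs with no assigned symbol, covered 218 members with 55 higher and 23 lower, and the 72 with a LINC or LINP name had 20 higher and 11 lower. The 29 named with an antisense or intronic suffix had 8 higher and 1 lower, and the 25 with any other name, outside the miRNA hosts, had 12 higher and none lower by limma, by voom or at an unadjusted p below 0.05. Of the 82 lincRNAs divergent from a neighbour within 5000 bases 24 were higher and 4 lower, and of the 72 downstream of their neighbour on the same strand 13 were higher and 9 lower. Spearman's rho with the log2 change was −0.0005 for gene length over the 352 members and −0.14 for GC content over the 329 with a searched transcript. These points share the 6 libraries, and a part of GC content in the changes was not tested.

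Transcripts with the TCGGAGAA motif shown above included 5 called higher, 1 not called and none lower by limma, by voom or at an unadjusted p below 0.05. RAB30-AS1, which starts 143 bases from RAB30 on the other strand, had 4.28, 4.13 and 4.44 FPKM in siSGK1 and 2.45, 2.57 and 2.18 FPKM in siControl (log2 change 0.72, SE 0.07, adjusted p = 0.0001), while RAB30 was not called (−0.02). AC006058.3 had a log2 change of 0.68, NEAT1 0.54, AL121790.2 0.47 and AC092117.1 0.33, and the uncalled LINC00324 had 0.16. AC092117.1 was called under 7 of the 13 alternatives, and the other 4 under all of them. The divergent neighbour of AC092117.1, ELOB, was lower (log2 change −0.42). Over all members, 21 of 60 called pairs joined a higher lincRNA to a lower neighbour. The median over the 6 was 0.51, against 0.08 for 27 lincRNAs with only TCGGAGA or CGGAGAA (9 higher, 5 lower) and 0.14 for 296 with neither (71 higher, 28 lower). The 6 have longer transcripts, with a median of 1599 bases against 802 for the rest searched. Among transcripts of at least 1000 bases with neither 7-base sequence, 32 of 112 were higher and 13 lower, with a median of 0.10. With either 7-base sequence at that length, 5 of them with the 8-base one, 12 of 24 were higher and 3 lower (median 0.27). The counts for the 2 parts both include the 6, and a difference between the parts was not tested. With CGGAGAA 11 of 19 were higher and 1 lower (median 0.34), and with TCGGAGA 8 of 20 were higher and 4 lower (median 0.225). Transcripts with CTATGCAA did not share a direction. SCAMP1-AS1 was higher (log2 change 0.29), AC006058.1 lower (−0.28, called under 5 of the 13 alternatives), AC114550.1 higher and AC022034.2 not called. A match in a transcript is a description of its letters and was not tested as a cause.

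**Figure D5:**
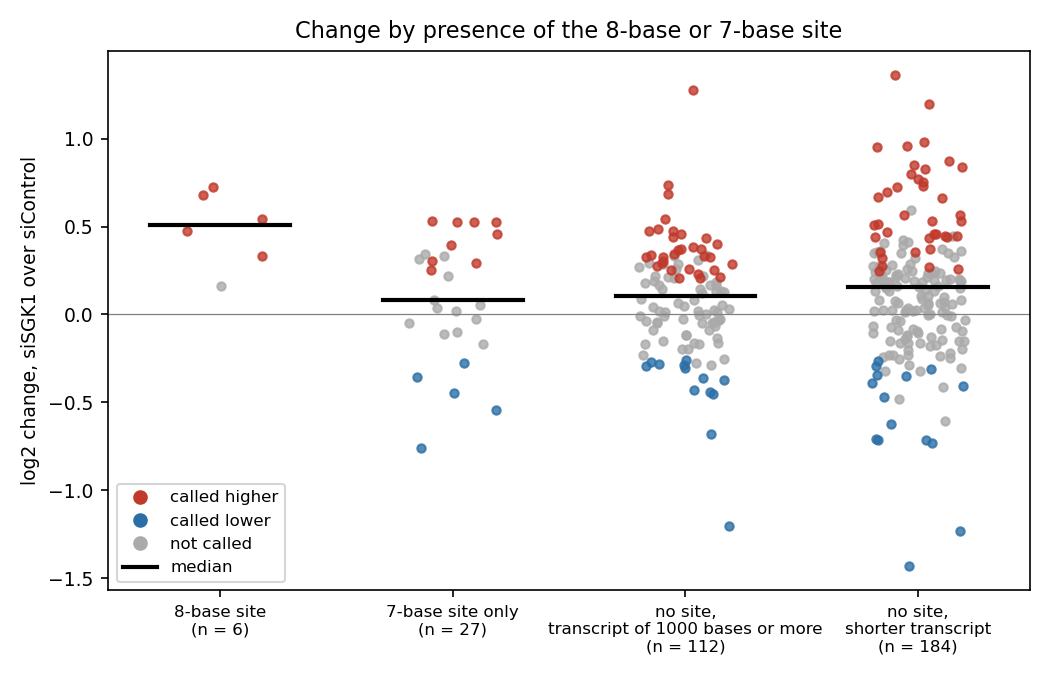
Log2 change, siSGK1 over siControl (y axis), of the 329 lincRNAs with a searched transcript, by site class (x axis): the 8-base site, a 7-base part of it only, neither in a transcript of 1000 bases or more, and neither in a shorter one; points are lincRNAs (red called higher, blue called lower, grey not called), spread sideways for view, and black bars are medians. The 6 with the 8-base site lie between 0.16 and 0.72, and the other classes, with medians of 0.08 to 0.15, spread to both sides of 0.

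Genes of the machinery that lincRNAs bind or pass through are given by lists chosen with earlier results known, to be read against the 17.9% of all tested genes called higher and the 22.7% called lower. Of 15 paraspeckle proteins 10 were higher and none lower by limma, by voom or at an unadjusted p below 0.05 (median log2 change 0.19), the direction of NEAT1, and total-read scaling made all 15 higher. HNRNPH3 had 26.5 ± 0.8 FPKM in siSGK1 and 18.2 ± 0.9 FPKM in siControl, and TAF15 had 41.5 ± 0.7 FPKM in siSGK1 and 31.7 ± 1.4 FPKM in siControl. SMARCA4 rose as well (log2 changes 0.53, 0.38 and 0.33 for the 3), and SFPQ, one of the core proteins of the body, had 0.29. Of 6 genes of hairpin cutting and export, DROSHA, DGCR8 and XPO5 were higher (log2 changes 0.24, 0.24 and 0.18), and none was lower by limma, by voom or at an unadjusted p below 0.05. Counts in the exosome list were near those shares. Of 20 genes of the nuclear exosome and its adaptors, which degrade many noncoding transcripts, 4 were higher and 5 lower, against 8 and 1 under total-read scaling. There PABPN1 and EXOSC3 rose (0.35 and 0.40) while EXOSC7 fell (−0.43). Of 16 tested genes that process or bind MALAT1, NEAT1 and NORAD, 3 were higher, RBMX, POP5 and METTL3 (0.33, 0.31 and 0.21), a share near that of all tested genes. Of 14 tested termination and cap-linked factors 4 were higher and 1 lower, with NCBP1, CPSF3 and INTS3 higher (0.32, 0.21 and 0.22).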

How the data were processed

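The deposited table gives FPKM per gene in 6 polyA libraries, made by the authors; per the submitters' processing notes reads were handled with bcl2fastq 2.19, HISAT2 2.0.5 and featureCounts 1.5.0-p3. These notes name hg19, but 97.5% of the table's genes have the coordinates of GENCODE 29 (GRCh38), which are used here. Multiplying each deposited FPKM by gene length gave whole reads for 100% of values, within 0.001 of a read, and showed library sizes of 0.952 to 1.09 times the total, so the deposited scale is not the plain total. The labels do not state strand or multimapping settings.

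Genes with a mean of at least 1 FPKM were tested with limma 3.58.1 (R 4.3.3, moderated with a mean trend) on log2(FPKM + 0.5), siSGK1 minus siControl, over 11945 genes with Benjamini-Hochberg adjustment at 0.05. A fold change on this scale understates that of low genes; stated folds are ratios of mean FPKM. Named are SGK1, lincRNAs with a described role, the 10 largest rises and falls among those called, the 3 highest, the 3 on each side of the level threshold, nearest protein-coding genes, and up to 3 genes per companion list. Summaries used Python 3.11.15. The fit was tested on simulated data. Members and lists were chosen with earlier results of these data known. Alternatives were pseudocounts of 0.1 and 1 FPKM, no level filter, 2 other scalings, voom on recovered reads, a replicate block and leaving out each library.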

Additional observations from a re-analysis of the deposited data

How the results depend on the processing

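Of the values with a test recomputed under 13 alternatives, 463 results kept their direction and side of the threshold, 9 gained a call, 31 lost one and 4 turned sign. Without the level filter, which raises the number of genes tested, 50 lincRNAs were higher and 17 lower, against 96 and 35. Total-read scaling gave 17 lower and a lincRNA median of 0.263, and voom on recovered reads a median of 0.179, against 0.15; for both medians the cause was not tested. Leaving out 1 library gave medians from 0.122 to 0.152, 73 to 88 lincRNAs higher and 28 to 34 lower. Sign turned in TP53TG1 under total-read scaling (0.023) and in IGFL2-AS1 under total-read scaling (0.088), quantile normalization (0.021) and when single libraries were left out (from −0.129 to 0.021, positive without siControl replicate 2), none of them called; the cause was not tested. Restricting to lincRNAs with at least 1 FPKM in each group (78 higher, 30 lower) or with no exon overlap (71 and 25) was chosen after seeing the data.

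The labels number both groups 2, 3 and 4. Deviations of same-numbered libraries correlated at 0.116, 0.0135 and −0.103, so the numbers were not taken as pairs. With the replicate block 4560 genes were called, against 4852, and 102 lincRNAs were higher and 39 lower, with EPB41L4A-AS1 gaining a call (adjusted p = 0.0153) and MIR4435-2HG losing it (adjusted p = 0.0742). Depth limits the scarce members, since 83 rest on fewer than 200 reads.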
